A study of Mus musculus with 18 samples.

Results

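The bile acid handling genes were Slc10a2, Fabp6, Slc51a, Slc51b, Nr1h4, Nr0b2 and Fgf15, 7 genes of bile acid transport in the ileum and of the pathway of FXR, the nuclear receptor for bile acids. They were taken by gene symbol and were 7 of the 17759 genes in the crypt table, 7 of 17423 at day 1 and 7 of 17612 at day 3. Expression was measured in 18 bulk RNA libraries from the mouse duodenum, made from 3 WT (Mtgr1+/+) mice and 3 mice labelled Mtgr1-/- (null). Each mouse gave freshly isolated crypts (day 0), enteroids, which are epithelial organoids grown from those crypts, at 24 h (day 1 post-plating), and enteroids at 72 h (day 3). Mtgr1 encodes a transcriptional corepressor and was absent from every cell of the null animals by design. The mice were male and female littermates on standard chow, 8 to 12 weeks of age, and all enteroids grew in Matrigel with EGF, Noggin and R-spondin. No group was given bile acids or another agent in the labels. A crypt isolate can hold immune and stromal cells of the mucosa, whereas an enteroid grows from epithelium alone.

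Bile acids are made from cholesterol in the liver, released into the duodenum and recovered mainly in the ileum. There, ASBT (Slc10a2) takes them up at the brush border, the ileal bile acid binding protein (Fabp6) carries them through the cytosol, and the heterodimer of OSTα (Slc51a) and OSTβ (Slc51b) releases them across the basolateral membrane. Inside the cell they bind FXR (Nr1h4), which induces the corepressor SHP (Nr0b2), both OST subunits, Fabp6 and the hormone FGF15 (Fgf15). FGF15 travels to the liver and represses bile acid synthesis. The duodenum normally has little ASBT, Fabp6 and FGF15.

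On day 1, 5 members were expressed at higher levels in the libraries labelled Mtgr1-/- than in WT, namely both OST subunits, FXR, SHP and FGF15, where 30% of all genes tested were called higher. By day 3 the same call held for 6, now with ASBT, against 29.9% of all genes. In crypts, none of the 5 members that could be tested passed the threshold, and 4.73% of all genes did in either direction. Fabp6 stayed near the limit of detection in all 18 libraries.

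The genes lie on 7 chromosomes of GRCm38. In the GENCODE M21 annotation, Slc10a2 (ENSMUSG00000023073.2) covers chr8:5083219-5105351 on the minus strand, and Fabp6 (ENSMUSG00000020405.4) covers chr11:43596049-43601540 on the minus strand. Slc51a (ENSMUSG00000035699.8, chr16:32474504-32487879) and Slc51b (ENSMUSG00000053862.6, chr9:65412714-65422955) are also on the minus strand. Nr1h4 (ENSMUSG00000047638.15, chr10:89454234-89533585) is on the minus strand, and Nr0b2 (ENSMUSG00000037583.2, chr4:133553376-133556536) and Fgf15 (ENSMUSG00000031073.6, chr7:144896531-144900953) are on the plus strand.

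The promoters of the members were searched for letters that nuclear receptors and regional transcription factors are known to bind. RefSeq promoters (GRCm38.p6, 250 bases before to 50 after the start) were at hand for 6 of the 7 members, without Fgf15. On both strands, the nuclear receptor motif AGGTCA was found for Slc51a, Slc51b and Nr1h4, and 16.3% of all 32851 promoters hold it. The motif with a leading A, AAGGTCA, which contains the first, matched no member and 4.72% of all promoters. The inverted repeat of AGGTCA around 1 free base (IR1), the classical FXR element, matched no member exactly and 0.00913% of all promoters. With up to 2 mismatches it was found for Fabp6 alone among the members, at 2 positions, against 1.14% of all promoters. The CDX motif TTTATNG was found at 3 positions of the Slc10a2 promoter and in 10.9% of all promoters. The GATA motif AGATAA was found for Nr1h4 and in 11.2% of all promoters. None of these motifs was found for Nr0b2. The stretches below lie upstream of each annotated start and are shown for the OST subunits, the exporters, and for the uptake transporter and the cytosolic carrier, which behaved differently from them. They are written 5′ to 3′ on the minus strand, which is the strand of each gene, with capitals marking AGGTCA or its reverse complement in the OST genes, the approximate IR1 in Fabp6 and the reverse complement of TTTATNG in Slc10a2. The genomic stretches are chr16:32487880-32488129 for Slc51a, chr9:65422956-65423023 for Slc51b, chr11:43601563-43601812 for Fabp6 and chr8:5105352-5105537 for Slc10a2.
Slc51a: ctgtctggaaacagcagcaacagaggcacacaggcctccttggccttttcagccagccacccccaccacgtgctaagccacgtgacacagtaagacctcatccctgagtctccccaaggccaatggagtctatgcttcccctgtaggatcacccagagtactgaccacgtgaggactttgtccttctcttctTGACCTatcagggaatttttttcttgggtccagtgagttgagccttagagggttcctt
Slc51b: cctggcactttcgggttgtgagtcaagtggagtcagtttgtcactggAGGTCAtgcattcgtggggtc
Fabp6: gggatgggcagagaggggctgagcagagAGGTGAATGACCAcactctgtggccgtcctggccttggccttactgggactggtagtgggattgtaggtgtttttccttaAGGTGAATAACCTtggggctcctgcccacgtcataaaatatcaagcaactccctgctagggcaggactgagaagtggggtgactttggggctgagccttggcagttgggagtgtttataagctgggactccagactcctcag
Slc10a2: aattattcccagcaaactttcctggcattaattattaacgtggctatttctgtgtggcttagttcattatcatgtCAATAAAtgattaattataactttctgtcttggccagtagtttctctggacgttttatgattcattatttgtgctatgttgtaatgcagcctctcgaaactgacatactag
The other 2 CDX matches of Slc10a2 lie past its most upstream annotated start and are not printed. These matches are descriptions of the letters, and no binding was measured.

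Reads on genes numbered 22035316 to 28621990 per library in the 16 libraries whose reads could be recovered. In every library the deposited normalized count of 1 read lay between 0.838 and 1.17. Mtgr1 itself is listed as Cbfa2t2 (chr2:154436481-154539356). Its mean normalized count was 577 ± 48.3 (SD, n = 3) in WT crypts and 566 ± 119 in crypts labelled Mtgr1-/-. On day 1 the means were 752 ± 39.3 and 986 ± 187 (log2 fold change 0.37, adjusted p = 0.0557, limma, or 0.0399 when blocked by mouse number), and on day 3 they were 842 ± 59.4 and 878 ± 106 (adjusted p = 0.686, limma). The summed transcript was thus not lower in the libraries labelled Mtgr1-/-, and a count over the whole gene does not show which part of it is intact, so it does not check the genotype. Directions below rest on the labels. Transcription factors of the proximal intestine were read beside the duodenal label. Gata4 had means of 5339.7 in WT crypts and 6023 in null crypts, and Pdx1 had means of 539 and 538. Fabp6, which marks the ileum, had means of 6.63 and 2.55. Of 20 listed genes of the distal enterocyte, 18 were also high enough to test in crypts, so these values do not settle the region. In crypts, the summed level of 14 immune cell markers was 132 to 1017 CPM (counts scaled to a library total of 1000000) in WT and 40.7 to 129.9 in null, with WT mouse 3 the highest, and no marker was at 0 in a whole group. Those of 11 stromal markers were 6.15 to 29.1 and 2.72 to 7.52. Those of 8 pancreatic acinar markers were 6.60 to 11.8 in WT and 4.17 to 4.90 in null. Of these, Amy2a5, Cela2a, Cpa1 and Prss2 were at 0 in every null crypt library and in WT mouse 3. The null sums were mostly Cela1, with a mean of 110 normalized counts, while Pnlip, Ctrb1 and Cel had means of at most 1.27. Cela1 was also read in day 1 enteroids, with means of 78.9 in WT and 113 in null.

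**Figure D1:**
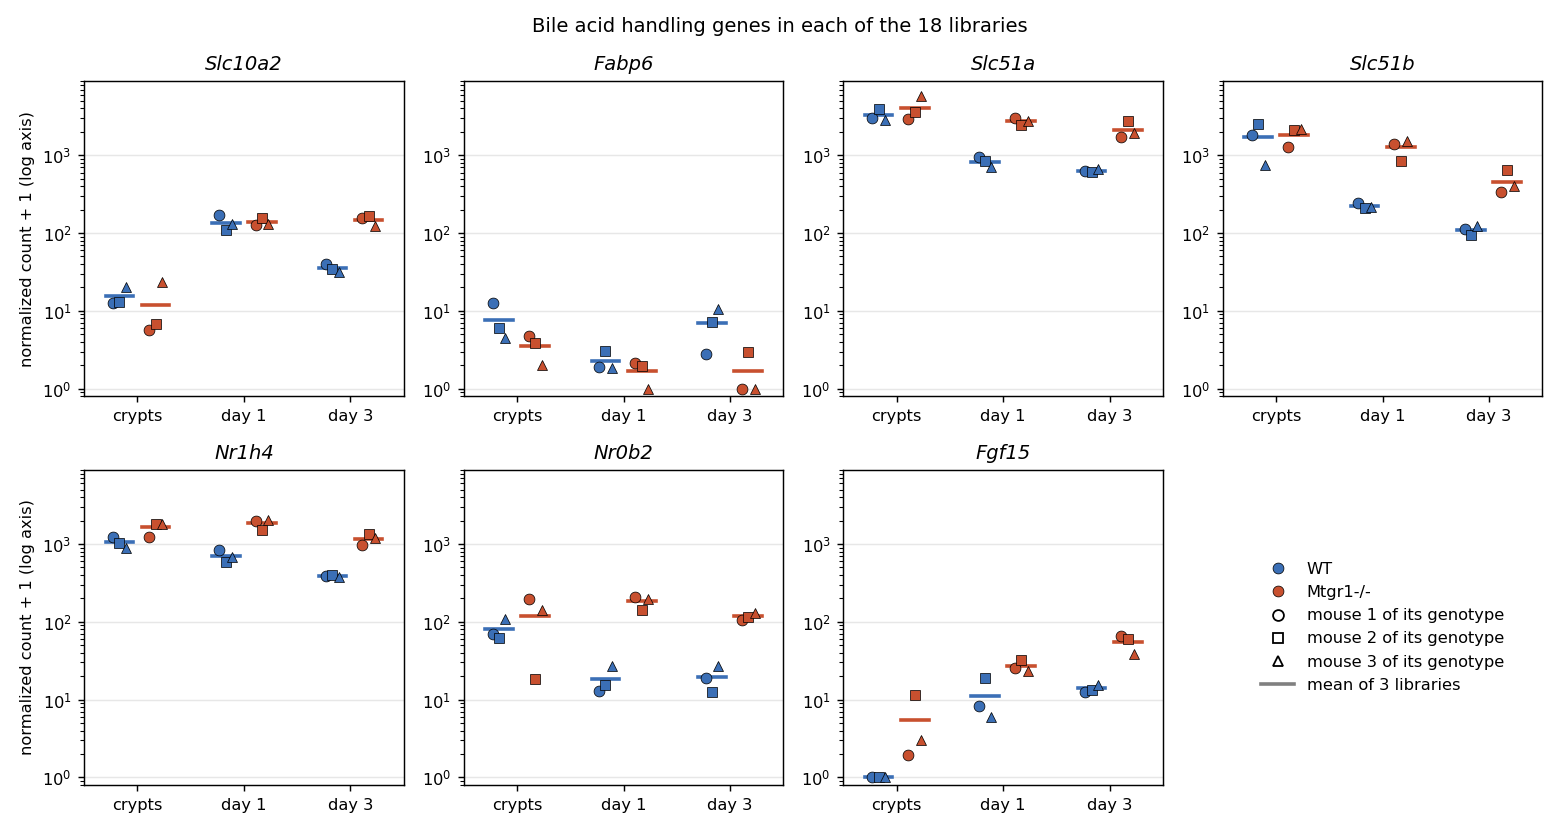
Normalized count plus 1 (log axis) of each of the 7 genes in crypts and in enteroids at day 1 and day 3, with 1 point per library (blue WT, red Mtgr1-/-, marker shape by mouse number) and a bar at the mean of 3 libraries. The 2 genotypes lie apart for Slc51a, Slc51b, Nr1h4, Nr0b2 and Fgf15 on both culture days, for Slc10a2 only on day 3, and Fabp6 is at most at 11.5 normalized counts in any library.

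The OST subunits export bile acids, and the data for them show a difference between genotypes in culture that was not detected in crypts. In crypts, Slc51a was at 2971, 3989 and 2801 normalized counts in the 3 WT libraries and at 2955, 3583 and 5727 in the 3 libraries labelled Mtgr1-/-. The ranges overlapped, with null mouse 3 the highest of the 6. The log2 fold change on log2(normalized count + 1) was 0.29 (SE 0.26, 95% interval -0.32 to 0.90, adjusted p = 0.604, limma). On day 1, the WT values were 960.3, 833 and 698, and those of the libraries labelled Mtgr1-/- were 3026, 2474 and 2753. Every null library exceeded every WT library, and the log2 fold change was 1.73 (SE 0.13, adjusted p = 0.000109, limma). On day 3, Slc51a was at 621, 611 and 668 in WT and at 1731, 2722 and 1923 in null (log2 fold change 1.72, SE 0.16, adjusted p = 8.91e-05, limma). The ranges again lay apart.

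Slc51b, the accessory subunit without which the transporter does not reach the membrane, was at 1841, 2489.8 and 745 in WT crypts and at 1278, 2106 and 2161 in crypts labelled Mtgr1-/-. WT mouse 3, the library with the highest immune markers, was the lowest. The log2 fold change was 0.26 (SE 0.44, adjusted p = 0.817, limma), and without that library it was -0.25 (adjusted p = 0.711, limma). On day 1, its values were 245, 206 and 214 in WT and 1412, 842 and 1526 in null. The log2 fold change was 2.46 (SE 0.22, adjusted p = 0.000182, limma), with no overlap. By day 3, Slc51b counts were 112, 92.6 and 122 in WT libraries and 332, 647 and 396 in null libraries (log2 fold change 2.01, SE 0.24, adjusted p = 0.000324, limma).

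The genotype difference of both subunits was itself tested for a change between time points, with limma over the 18 libraries together. From crypts to day 1 it grew by 1.44 (SE 0.30, adjusted p = 0.00295) for Slc51a and by 2.20 (SE 0.52, adjusted p = 0.0048) for Slc51b on the log2 scale. From day 1 to day 3 it did not pass the threshold for either, with 95% intervals of -0.66 to 0.63 for Slc51a and -1.54 to 0.65 for Slc51b.

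Read in CPM, which puts the 3 time points on one scale, the OST difference in culture went with a lower level in WT enteroids than in WT crypts. Slc51a was at 128 ± 25.4 CPM in WT crypts, 34.8 ± 4.69 on day 1 and 26.4 ± 1.08 on day 3 (SD, n = 3 each). In libraries labelled Mtgr1-/- it was at 162 ± 45.5, 92.2 ± 4.48 and 76.5 ± 13.9. From crypts to day 1, the level in the same mouse went to between 0.232 and 0.325 times its crypt value in WT and to between 0.417 and 0.790 times in null. For Slc51b, the same factors were 0.0918 to 0.313 in WT and 0.351 to 0.853 in null. These factors are descriptions, without a test of the time course.

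**Figure D2:**
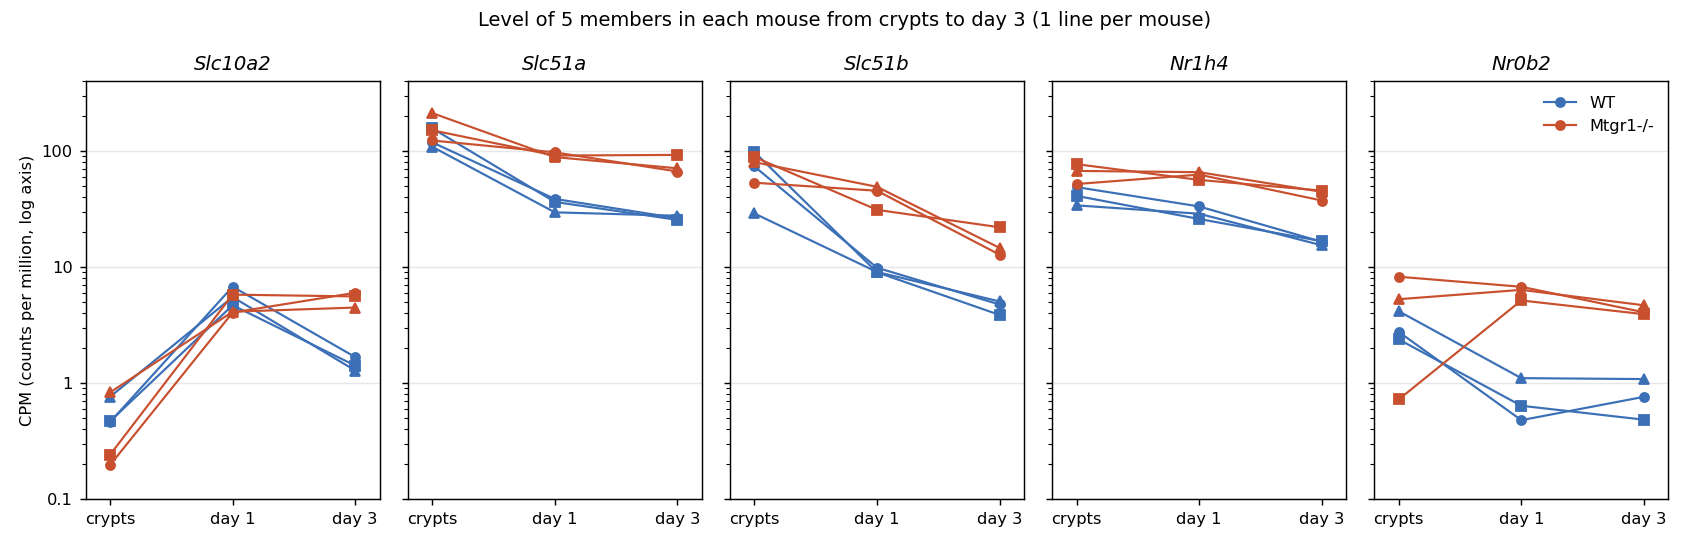
Level in CPM (counts scaled to the library total, shared log axis) of Slc10a2, Slc51a, Slc51b, Nr1h4 and Nr0b2 at crypts, day 1 and day 3, with 1 line per mouse (blue WT, red Mtgr1-/-). Both OST subunits are at lower levels on day 1 than in crypts in all 6 mice, with the WT lines below the null lines on both culture days, and Slc10a2 is higher on day 1 than in crypts in all 6 mice and lower on day 3 than on day 1 in the 3 WT mice.

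The proportion of the OST subunits within a library does not depend on the normalization. The ratio of Slc51b to Slc51a reads was 0.620, 0.624 and 0.266 in WT crypts and 0.432, 0.588 and 0.377 in null crypts. On day 1 it was 0.255, 0.248 and 0.306 in WT and 0.467, 0.340 and 0.555 in null, and on day 3 it was 0.180, 0.152 and 0.183 against 0.192, 0.238 and 0.206. The ranges lay apart on both culture days, where the exact permutation test (two-sided) gave p = 0.1, the smallest that 3 against 3 libraries allow. In crypts they overlapped (p = 0.8, exact permutation test). Per kilobase of the longest coding transcript, 2618 bases for Slc51a and 709 for Slc51b, the mean level in WT crypts was 48.9 CPM for Slc51a and 94.1 for Slc51b. On day 3 in WT the order was the other way, with 10.1 for Slc51a and 6.41 for Slc51b.

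Slc10a2, the transporter for uptake, followed another course. In crypts it was low in both genotypes, at 11.5, 11.9 and 19.6 normalized counts in WT and 4.71, 5.71 and 22.4 in null (adjusted p = 0.674, limma). On day 1, the WT libraries had 168, 107 and 129.9 and the libraries labelled Mtgr1-/- had 126, 156 and 128. The groups overlapped fully, and the log2 fold change was 0.03 with a 95% interval of -0.44 to 0.51 (adjusted p = 0.897, limma). On day 3, the WT libraries had 39.4, 33.8 and 31.0 and the null libraries had 156, 164 and 121. Every null library exceeded every WT library, with a log2 fold change of 2.05 (SE 0.20, adjusted p = 0.000116, limma). The genotype difference was larger on day 3 than in crypts by 2.67 (SE 0.56, adjusted p = 0.00447, limma). Against day 1 it was larger by 2.01 (SE 0.56), which did not pass after adjustment over all genes (unadjusted p = 0.00269, adjusted p = 0.231, both from limma). In CPM, the day 3 level of each mouse was 0.233 to 0.301 times its day 1 level in WT and 0.965 to 1.48 times in null.

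Fabp6, the cytosolic carrier, was near the limit of detection. In crypts it was at 11.5, 4.95 and 3.45 normalized counts in WT and 3.77, 2.85 and 1.02 in null, and on day 1 it was at 0.915, 2.08 and 0.838 against 1.17, 0.948 and 0. On day 3, the WT libraries had 1.79, 6.23 and 9.68 and the libraries labelled Mtgr1-/- had 0, 1.99 and 0. Its mean was under 10 at each time point, so it was not tested with the other genes. Without the filter on low values, the day 3 difference was -2.06 on the log2 scale, with an adjusted p of 0.0326 in limma. On the recovered reads of 5 libraries, edgeR without the filter gave an adjusted p of 0.0464. Those 5 lack null mouse 2, the only null library above 0. The lowest WT and the highest null library overlapped, and the WT values are a few reads each. The data do not place Fabp6 with the members that were higher in null.

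Nr1h4 encodes FXR itself. It was at 1221, 1041 and 875 normalized counts in WT crypts and at 1245, 1827 and 1816 in crypts labelled Mtgr1-/-. These ranges lay just apart, as did those of 25.5% of all genes tested in crypts. The log2 fold change of 0.63 (SE 0.19) had an adjusted p of 0.127 (limma). On day 1, the WT libraries had 827, 594 and 679, and the null libraries had 1945, 1526 and 2040.4 (log2 fold change 1.39, SE 0.16, adjusted p = 0.000378, limma). At 72 h, its counts were 389, 399.9 and 372 in WT and 973, 1339 and 1206 in null (log2 fold change 1.59, SE 0.13, adjusted p = 4.43e-05, limma). In WT, the level in CPM was 41.2 ± 7.41 in crypts, 29.3 ± 3.69 on day 1 and 16.2 ± 0.701 on day 3. In null it was 65.3 ± 12.6, 61.4 ± 4.74 and 42.4 ± 4.40. The genotype difference grew from crypts to day 1 by 0.76 (SE 0.25, adjusted p = 0.0231, limma). That call did not pass without any 1 of WT crypt 1, null crypt 1, WT day 1 mouse 2, null day 1 mouse 1 or null day 1 mouse 3, with adjusted p-values up to 0.0765.

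Nr0b2 encodes SHP, a corepressor induced by FXR. Crypts labelled Mtgr1-/- varied widely, with 198, 17.1 and 142 normalized counts against 69.0, 60.4 and 107 in WT. Null mouse 2 was the lowest and null mouse 1 the highest of the 6, and no difference was detected (log2 fold change 0.05, SE 0.86, adjusted p = 0.982, limma). On day 1, the null libraries had 209.9, 139 and 197 and the WT libraries had 11.9, 14.6 and 26.0. This was the largest genotype difference among the members, with a log2 fold change of 3.36 (SE 0.33, adjusted p = 0.000236, limma) and a ratio of means of 10.4. On day 3, the null libraries had 106, 115 and 127 and the WT libraries had 17.9, 11.6 and 26.1 (log2 fold change 2.65, SE 0.30, adjusted p = 0.000233, limma). Null mouse 2, low in crypts, had 5.14 CPM on day 1, near the 6.74 and 6.34 of the other null mice. The difference grew from crypts to day 1 by 3.31 (SE 0.89, adjusted p = 0.00927, limma). Without null crypt mouse 2 the growth was 2.24 and still passed (adjusted p = 0.0321, limma).

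Fgf15 encodes the hormone that reports ileal bile acids to the liver. No read was found in the 3 WT crypt libraries, and the null crypts had 0.942, 10.5 and 2.03 normalized counts, of which most came from null mouse 2. Crypts were not tested. On day 1, Fgf15 was at 7.32, 17.7 and 5.03 in WT and at 24.5, 31.3 and 22.1 in null. The ranges lay apart and the log2 fold change was 1.45 (SE 0.48, adjusted p = 0.0323, limma). This call did not pass without any 1 of WT mouse 1, WT mouse 3 or a null mouse (adjusted p 0.0538 to 0.0917, limma), nor with DESeq2 (adjusted p = 0.0521), and it passed without WT mouse 2 (adjusted p = 0.0115, limma). On day 3, the WT libraries had 11.7, 12.5 and 14.5 and the null libraries had 63.7, 59.7 and 37.1 (log2 fold change 1.94, SE 0.30, adjusted p = 0.000984, limma). In CPM, WT enteroids had 0.426 ± 0.302 on day 1 and 0.537 ± 0.0555 on day 3, and null enteroids had 0.882 ± 0.238 and 1.94 ± 0.545. Fgf15 was the only member whose null mean was higher on day 3 than on day 1 with ranges that lay apart.

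**Figure D3:**
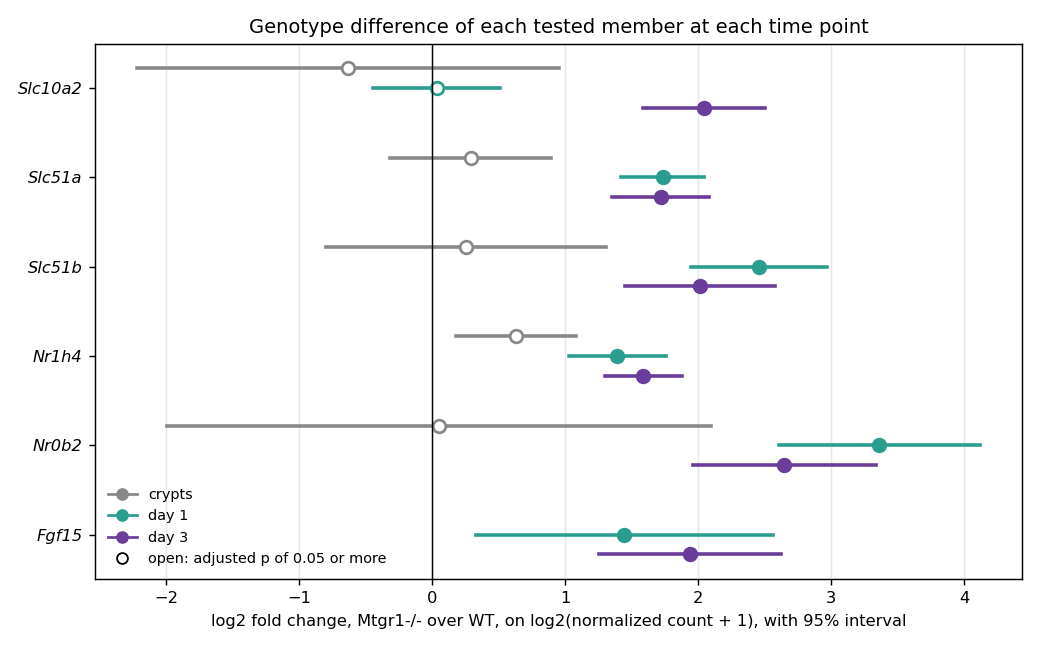
Log2 fold change of libraries labelled Mtgr1-/- over WT, with its 95% interval from limma, for the members tested in crypts (gray, without Fgf15), on day 1 (green) and on day 3 (purple), where filled points have an adjusted p under 0.05. The crypt intervals include 0 except that of Nr1h4, whose adjusted p was 0.127, and Slc10a2 alone is at 0.03 on day 1 and at 2.05 on day 3.

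Read against the whole table, these counts stand on a broad background. In crypts, 0 of 5 tested members passed (limma), with 1 of the 5, Nr1h4, at an unadjusted p under 0.05, and 4.73% of all 12980 genes tested passed. No member passed in crypts with edgeR or DESeq2 on 5 libraries either. On day 1, 5 of 6 tested members were higher in libraries labelled Mtgr1-/-, where 30% of all 12587 genes were called higher and 28.9% lower. Their ranges lay apart with null higher, as did those of 34.2% of all genes. On day 3, 6 of 6 were higher, against 29.9% of 12782 genes higher and 29.1% lower, and the same 6 had ranges apart with null higher, against 34.6% of all genes. The seventh member, Fabp6, was not tested in any of the 3. The median log2 fold change of the tested members was 1.59 on day 1 and 1.98 on day 3, where that of all genes was -0.0080 and 0.0026. For the change of the genotype difference from crypts to day 1, 4 of 6 members passed with a positive sign (Slc51a, Slc51b, Nr1h4 and Nr0b2), against 19.4% of all 12937 genes. From crypts to day 3, 5 of 6 did, those and Slc10a2, against 16.3% of all genes, and both tests share the crypt libraries. From day 1 to day 3, none of the 6 members passed and 0.0309% of all genes did, while Slc10a2 had an unadjusted p under 0.05.

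The levels across the 6 groups, in CPM, put the members into different orders. Slc51a and Slc51b were highest in crypts of either genotype, whose ranges overlapped, then in null day 1, null day 3, WT day 1 and WT day 3. For Slc51b the 4 enteroid groups lay apart from one another, but the range of WT crypts, with mouse 3 at 28.9, overlapped that of null day 1, whereas for Slc51a the ranges of null day 1 and null day 3 overlapped. Nr1h4 was highest in null crypts and null day 1, which overlapped, and lowest in WT day 3. For Nr0b2, null day 1, null crypts, null day 3 and WT crypts, at 6.07, 4.74, 4.21 and 3.09, each overlapped with the next in this order, and WT enteroids were at 0.773 on day 3 and 0.737 on day 1. Their ranges lay below those of WT crypts and of null enteroids and overlapped that of null crypts, in which mouse 2 was at 0.720. Slc10a2 had WT day 1, null day 3 and null day 1 together at 5.64, 5.34 and 4.64, then WT day 3 at 1.45 and crypts at 0.561 and 0.421. Fabp6 did not reach 0.5 CPM in any library, and neighbouring groups in its order overlapped throughout.

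Other bile acid transporters moved in part with the members. Of 13 listed, 7 could be tested, and in crypts none passed (limma). On day 1, 5 were higher and 1 lower in libraries labelled Mtgr1-/-. Abcc2 (MRP2), an apical exporter of conjugates, had a log2 fold change of 1.61 (SE 0.11), and Abcg8 and Abcg5, which together form the apical sterol exporter, had 1.42 (SE 0.16) and 1.13 (SE 0.15). Slco2b1, an uptake carrier of organic anions, was lower, at -0.76 (SE 0.21, adjusted p = 0.0145, limma). On day 3 the counts were again 5 higher and 1 lower, and Abcc3 (MRP3), a basolateral exporter that also carries bile acids, stood at 1.43 (SE 0.088, adjusted p = 1.57e-05, limma). The liver uptake carrier Slc10a1 and the canalicular pump Abcb11 were too low to test.

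Among 16 nuclear receptors and bile acid sensors, 14 were tested, and none passed in crypts (limma). Rxra, the partner with which FXR binds DNA, was at a log2 fold change of 0.77 on day 1 (adjusted p = 0.000406, limma) and 0.71 on day 3 (adjusted p = 0.00193, limma). In all, 11 were higher and 1 lower on day 1, and 9 higher and 1 lower on day 3. Malrd1, which in enterocytes promotes FGF15 production, had 1.26 (SE 0.22) on day 1 and 1.05 (SE 0.15) on day 3, Ppara had 1.23 (SE 0.11) and 1.53 (SE 0.17), and the xenobiotic receptor Nr1i2 (PXR) had 1.16 (SE 0.11) on day 1. The one that was lower was Rxrb, at -0.34 (SE 0.12) and -0.28 (SE 0.089).

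The other genes known as FXR targets were called in both directions, near the shares of all genes. Of 10 tested on day 1, 4 were higher and 3 lower in null, with a median log2 fold change of -0.12. Of 10 tested on day 3, 3 were higher and 3 lower, with a median of 0.16. Of all genes, 30% were called higher and 28.9% lower on day 1, and 29.9% and 29.1% on day 3. Abcc2, named above as a transporter, is also on this list. Apoc2, an activator of lipoprotein lipase, stood at 2.74 (SE 0.42) on day 1 and 2.66 (SE 0.22) on day 3, and Cyp3a11, a detoxifying enzyme that hydroxylates bile acids, at 2.37 (SE 0.26) and 2.41 (SE 0.29). Against them, Car12 (carbonic anhydrase), Nos2 (inducible nitric oxide synthase) and Ang (angiogenin), which are linked to FXR and mucosal defence, stood at -2.66 (SE 0.12), -1.91 (SE 0.71) and -0.90 (SE 0.20) on day 1. On day 3 they stood at -2.13 (SE 0.16), -0.93 (SE 0.24) and -0.78 (SE 0.14). Nos2 on day 1 overlapped between genotypes (adjusted p = 0.0492, limma), and did not pass with a pseudocount of 0.1 (adjusted p = 0.051, limma). In crypts 2 of 11 passed, Vldlr at -3.35 (SE 0.46, adjusted p = 0.0107, limma) and Il18 at -0.97 (SE 0.19, adjusted p = 0.0345, limma). Neither passed without WT crypt mouse 2 (adjusted p = 0.0656 and 0.113, limma), nor with edgeR, which also lacked that library (adjusted p = 0.0555 and 0.126), while DESeq2 on the same 5 libraries called both (adjusted p = 0.000151 and 0.00404). On day 1 Il18 was higher in null, at 0.51 (SE 0.14, adjusted p = 0.0172, limma). Cyp3a11 had the opposite sign in crypts, at -2.84 (SE 0.69), and did not pass there (adjusted p = 0.0719, limma), although its ranges lay apart.

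Enzymes of bile acid synthesis belong to the liver, and Cyp7a1, its rate-limiting enzyme, was not in any of the 3 tables. Of 12 listed, 6 were tested on day 1 with 5 higher in null, and 8 on day 3 with 5 higher. Cyp27a1, the mitochondrial sterol hydroxylase of the alternative route, had the largest rise of the list, from 105 ± 30.9 normalized counts in WT to 937 ± 221 in null on day 1 (log2 fold change 3.16, SE 0.24, adjusted p = 0.000109, limma). On day 3 it was at 88.2 ± 11.6 and 458 ± 32.4 (2.37, SE 0.14, adjusted p = 1.51e-05, limma). The peroxisomal genes Scp2, Hsd17b4 and Acox2, which shorten the side chain and also serve fatty acid oxidation, were higher on day 3 by 1.09 (SE 0.20), 0.75 and 1.42 (SE 0.16). In crypts none of 7 passed (limma).

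The receptors that bind FGF15 and related factors behaved otherwise. Fgfr4, the FGF15 receptor of the liver, was at 64.6 ± 9.18 in WT crypts and 198 ± 69.7 in null crypts (log2 fold change 1.56, SE 0.27, adjusted p = 0.0263, limma), and at 0.58 (SE 0.12, adjusted p = 0.00465, limma) on day 1. In crypts it did not pass without WT mouse 2 (adjusted p = 0.102, limma), nor with edgeR on the same 5 libraries (adjusted p = 0.125), and it passed with DESeq2 on them (adjusted p = 0.00611). Its coreceptor Klb had means of 12.7 in WT and 21.0 in null on day 1 (adjusted p = 0.127, limma). Fgfr2 was lower in null at all 3 time points, with log2 fold changes of -1.88 (SE 0.38), -2.58 (SE 0.20) and -2.30 (SE 0.38), and Fgfr3 was lower on day 1 (-0.73, SE 0.19) and day 3 (-1.74, SE 0.14). The crypt value of Fgfr2 did not pass without WT mouse 2 (adjusted p = 0.133, limma) or with edgeR on those 5 libraries (adjusted p = 0.141), and passed with DESeq2 on them (adjusted p = 0.00871).

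Genes of the enterocyte, the absorptive cell in which the members are normally expressed, were higher in the same libraries. Of 20 pan-enterocyte genes, 19 were higher and 1 lower on day 1, with a median log2 fold change of 1.71, and 18 were higher on day 3, with a median of 1.64. Among them, the peptide transporter Slc15a1 stood at 3.27 (SE 0.20) on day 1 and 2.61 (SE 0.28) on day 3, and adenosine deaminase (Ada) at 3.50 (SE 0.57) and 3.44 (SE 0.17). The sucrase Sis went the other way in crypts (-4.51, SE 0.43) and on day 1 (-2.59, SE 0.42). The summed level of the 20 genes was 15795 to 18284 CPM in WT and 27293 to 35961 in null on day 1, and 10985 to 13096 against 19289.8 to 28044 on day 3, with no gene at 0 in a whole group. In crypts the sums were 32949.9 to 36177 and 23700.5 to 33474. There, Sis alone had means of 207004 normalized counts in WT and 10272 in null, and it was the only gene of the list called. Of the 20 genes, 12 had a positive log2 fold change in crypts, with a median of 0.13, so the sums do not show a fall across the list. Whether the members followed the enterocyte genes was not tested. In bulk libraries, more cells of a type and more RNA per cell cannot be told apart.

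Genes of both ends of the intestine were among those called. Of 20 genes of the proximal enterocyte, 19 were higher on day 1 and 18 on day 3, with medians of 1.40 and 1.46. Of distal enterocyte genes, 15 of 17 tested were higher on day 1 and 17 of 18 on day 3, with medians of 2.10 and 1.77. The phosphate transporter Slc34a2 had the largest difference, from 10.4 ± 1.30 normalized counts in WT to 398 ± 130 in null on day 1 (log2 fold change 5.08, SE 0.27, adjusted p = 3.01e-05, limma). In crypts the distal genes had a median of 0.58, and 2 of 18 passed, Dpep1 (1.17, SE 0.23, adjusted p = 0.036, limma) and Clec2h (0.66, SE 0.14, adjusted p = 0.0496, limma). Neither passed without WT mouse 2 (adjusted p = 0.101 and 0.162, limma) or with edgeR on the same 5 libraries (adjusted p = 0.11 and 0.171), and both passed with DESeq2 on them (adjusted p = 0.000272 and 0.00699). The proximal genes had a median of -0.06 in crypts, where none was higher and 2 of 20 were lower in null, the fructokinase Khk (-1.10, SE 0.16, adjusted p = 0.0129, limma) and the fructose transporter Slc2a5 (-1.88, SE 0.39, adjusted p = 0.0449, limma). Neither passed without WT mouse 2 (adjusted p = 0.0578 and 0.143, limma) or with edgeR on the same 5 libraries (adjusted p = 0.0657 and 0.168). With DESeq2 on them, Khk passed (adjusted p = 4.99e-06) and Slc2a5 did not (adjusted p = 0.102). The difference between the proximal and the distal list was not tested. Regional transcription factors were mixed, with 11 of 17 higher and 1 lower on day 1 and 9 higher and 2 lower on day 3. Maf, which acts in enterocyte maturation, stood at 2.01 (SE 0.17) on day 1. Gata4, a factor of the proximal intestine, stood at 0.41 (adjusted p = 0.00519, limma) on day 1 and 0.30 (adjusted p = 0.031, limma) on day 3. Its part in the levels of the members was not tested. Cdx1 was lower, at -0.75 (SE 0.11, adjusted p = 0.000925, limma) on day 1 and -0.42 (SE 0.13, adjusted p = 0.0238, limma) on day 3.

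**Figure D4:**
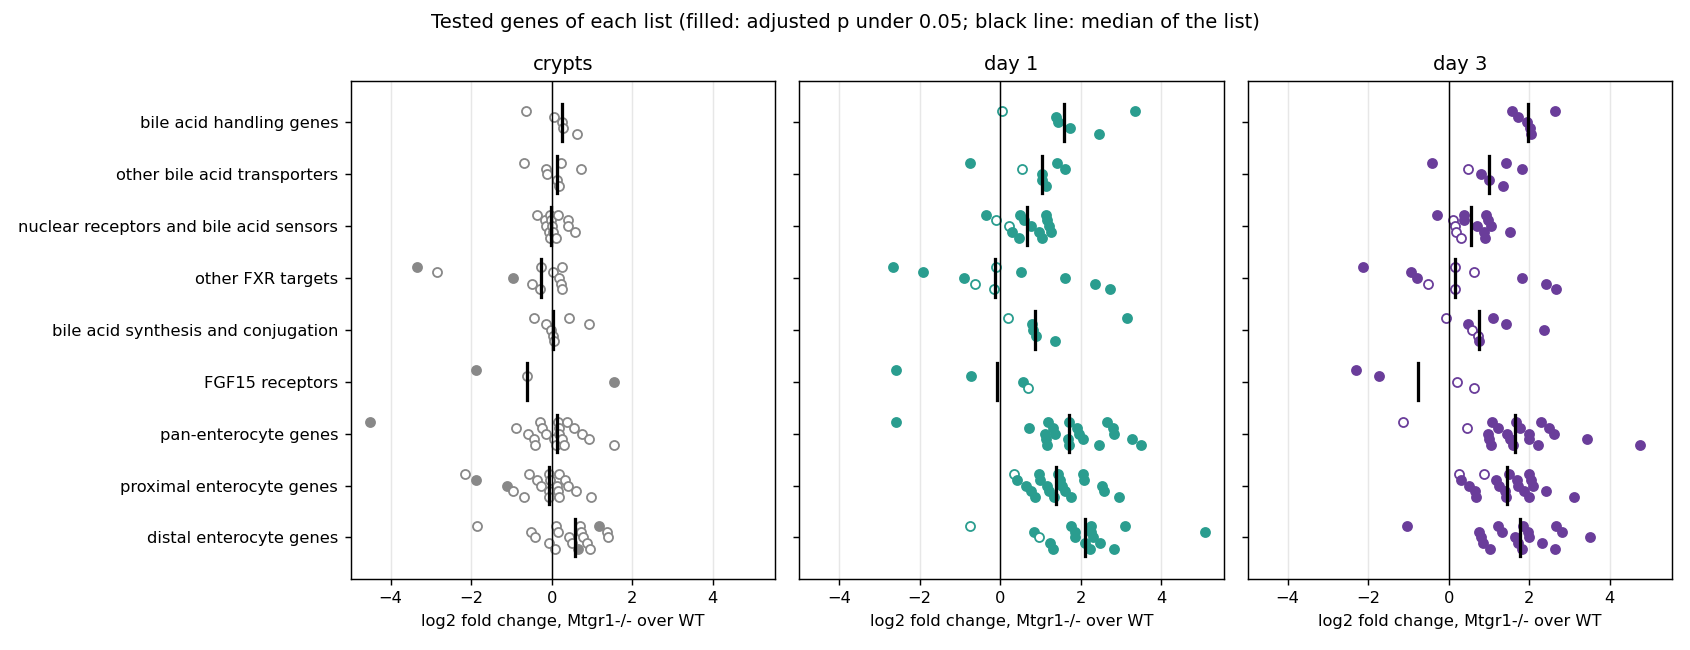
Log2 fold change of libraries labelled Mtgr1-/- over WT for the tested genes of 9 lists in crypts, on day 1 and on day 3, with 1 point per gene (filled for an adjusted p under 0.05, limma) and a black line at the median of the list. In crypts the medians lie between -0.60 and 0.58, and on both culture days the medians of the bile acid handling genes and of the 3 enterocyte lists are at least 1.40 while the other FXR targets spread to both sides of 0.

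Markers of other cells were also measured in enteroids. The 14 immune markers summed to 4.52 to 20.1 CPM in WT and 2.13 to 28.1 in null on day 1, and 12 of them to 0.986 to 2.64 and 2.70 to 38.3 on day 3, with null mouse 3 the highest on both days. The 6 stromal markers in the table summed to 7.78 to 12.2 and 1.96 to 3.61 on day 1, and to 7.66 to 8.67 and 1.48 to 6.32 on day 3. Vim made up most of the WT sums on day 1, with means of 192 normalized counts in WT and 24.2 in null. Pdgfrb had means of 11.8 and 35.4 there, and Pecam1 had 16.1 and 16.2, so the day 1 sums do not show a fall across the list. Single markers were called between genotypes. The macrophage receptor Csf1r was higher in null on day 1 (3.70, SE 0.71, adjusted p = 0.00323, limma) and day 3 (4.03, SE 0.77, adjusted p = 0.0028, limma). Its means in null were 25.2 and 59.1 normalized counts. It was the only immune marker called on either day. On day 1, 2 of the 8 tested had a positive log2 fold change, with a median of -0.77. On day 3, all 3 tested did, with a median of 2.35. Pdgfrb, a marker of pericytes and fibroblasts, was higher on day 1 (1.53, SE 0.49, adjusted p = 0.0286, limma, or 0.0585 when blocked by mouse number). Vim, an intermediate filament of mesenchymal cells, was lower on day 1 (-3.44, SE 0.70, adjusted p = 0.00418, limma) and day 3 (-3.09, SE 1.07, adjusted p = 0.0354, limma). The day 3 call of Vim did not pass without any 1 WT library or without null mouse 2, nor with edgeR or DESeq2, and the day 1 call of Pdgfrb did not pass without any 1 of WT mouse 1, null mouse 1 or null mouse 3. Their part in the results was not tested. Of the Xist-expressing mice there was 1 in each genotype, and without them Slc51a, Slc51b, Nr1h4 and Nr0b2 still passed on day 1 and, with Slc10a2 and Fgf15, on day 3.

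The genes whose course over the 18 libraries was most like that of each member were found by Pearson's r of log2(CPM + 1) among 11846 genes with a mean of at least 1 CPM. For Slc10a2 these were Serpinb5, Plaur and F3 (r = 0.976, 0.974 and 0.974). For Slc51a they were Clec2h, Mcfd2 and Slc7a9 (0.983, 0.981 and 0.980), and for Slc51b they included Pfkp and Fam3b (0.979 and 0.975). Nr1h4 was most like Tax1bp3, Mep1b and Serpinb1a (0.968, 0.965 and 0.963), and Nr0b2 most like Mfsd11, Tesk2 and Map3k13 (0.968, 0.956 and 0.944). For Fgf15 they were Wfdc2, Ttc9 and Tnfrsf10b (0.944, 0.924 and 0.922). No gene named here appears for more than 1 member. The 18 points share mice, genotype and time point, so these values are descriptions.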

How the data were processed

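RNA of 18 mouse libraries was analysed (3 WT and 3 Mtgr1-/- mice at each of 3 time points). Per the methods and the submitters' processing notes, the authors made stranded mRNA libraries, sequenced single reads of 50 bases, trimmed them with fastp 0.20.0, quantified them against a GENCODE mouse transcriptome with Salmon 1.3.0 and normalized gene counts with DESeq2 1.26.0 after omitting genes with next to no reads. What was deposited is a signal, namely gene counts over a size factor of the library, in 1 table per time point. The authors' columns of mean, log2 fold change, standard error, statistic and p-values were not used.

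Values of 100% of genes in each library were whole multiples (tolerance 0.01 reads) of 1 step. Reads were taken as recovered in 16 libraries. In WT crypt mouse 2 and null day 3 mouse 2 the step was too close to 1 to show this, and both were left out of the count tests (edgeR 4.0.16, DESeq2 1.42.0). Genotypes were compared, 3 libraries against 3, within each table with limma 3.58.1 (lmFit, eBayes with trend, two-sided) in R 4.3.3 on log2(normalized count + 1) for genes with a mean of at least 10, with Benjamini-Hochberg adjustment over all genes tested and a threshold of 0.05. Fold changes on this scale understate changes of low genes. Changes of the genotype difference were tested over the 18 libraries together, mice entering as a random effect (correlation within mice 0.00576), for genes with a mean of at least 10 over them. Levels across time points are counts scaled to a library total of 1000000 (CPM). Depth was 22035316 to 28621990 reads (median 26258539) in the 16 libraries with recovered reads, so a mean of 10 rests on about 10 reads per library.

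Groups and mouse numbers came from the labels. Each number names a different mouse in each genotype. The correlations of same-numbered libraries' deviations from their group means were 0.0764 to 0.346 in crypts, 0.116 to 0.231 on day 1 and -0.0156 to -0.00226 on day 3, so by the rule that each exceed 0.1 the numbers paired the libraries on day 1 alone, and the fit with the number as a block is an alternative. Replicates differed by more than sampling noise (chi-square per degree of freedom 13.8 to 130.2). The fits were tested on simulated data with known changes. The named genes are the 7 members, up to 3 rises and 3 falls of each list per time point, Cbfa2t2 and the 3 genes most like each member, and a few pathway or regional genes (Rxra, Klb, Gata4, Pdx1, Hsd17b4, Cyp7a1, Slc10a1, Abcb11) were added after their values were seen. A few genes that the rule names are not reported here. The members and lists were chosen with earlier results of these data known. Alternatives were libraries left out, pseudocounts of 0.1 and 8, other filters and normalizations, no trend, the block, no mouse effect and count tests. A count test without a filter and a fit without the Xist-expressing mice were added after the data were seen.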

Additional observations from a re-analysis of the deposited data

Results flagged for a closer look

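For 5 members, the genotype difference itself differed between time points in limma's test on all 18 libraries, with adjusted p under 0.05. From crypts to day 1 the log2 difference, Mtgr1-/- minus WT, changed by 1.44 for Slc51a (adjusted p = 0.00295, limma), by 2.20 for Slc51b (adjusted p = 0.0048), by 0.76 for Nr1h4 (adjusted p = 0.0231) and by 3.31 for Nr0b2 (adjusted p = 0.00927), where 19.4% of all genes tested passed with a positive sign. From crypts to day 3 it changed by 2.67 for Slc10a2 (adjusted p = 0.00447, limma), 1.43 for Slc51a (adjusted p = 0.00452), 1.76 for Slc51b (adjusted p = 0.0202), 0.95 for Nr1h4 (adjusted p = 0.0116) and 2.60 for Nr0b2 (adjusted p = 0.0379), against 16.3% of all genes. The direction was positive each time and both sets of tests share the crypt libraries, in which null mouse 2 was low for Nr0b2 and WT mouse 3 was low for Slc51b. In crypts, the summed immune markers were lower in every null library than in every WT library, and their part in these changes was not tested.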

How the results depend on the processing

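Of 3972 values recomputed for 219 results, 31 changed sign and none of these passed the threshold. Slc51a, Slc51b, Nr1h4 and Nr0b2 passed on day 1 and day 3 under every alternative run, as did Slc10a2 on day 3. Fgf15 passed on day 3 under every alternative that tested it. With a minimum mean of 50 it was not tested, and 5 members were higher on day 3. No member passed in crypts under any alternative. Fgf15 on day 1 had adjusted p-values of 0.0115 to 0.16 (limma) with libraries left out and did not pass with DESeq2 or with edgeR without a filter. The count of all genes called in crypts was 614 and became 209 with edgeR, 219 with edgeR without a filter and 1200 with DESeq2. These 3 fits also lack WT mouse 2, without which limma called 211, so the lower edgeR counts are not shown to come from the tool. It was 176 to 608 with libraries left out, of which 354 with only the 4 libraries without Xist. On day 1 it was 7413 and became 4387 (only the 4 libraries without Xist) to 7874 with libraries left out. The number of members lower on day 3 was 0 and became 1, Fabp6, without a filter and with edgeR without a filter. That edgeR fit lacks null mouse 2, the only null library above 0 for Fabp6. For the change of the genotype difference from day 1 to day 3, 4 genes were called, 53 with a pseudocount of 8, 10 with the replicate block and 0 to 108 with libraries left out. From crypts to day 3, 2611 to 4280 genes were called with libraries left out, against 3965, and 3 to 5 members passed, against 5. Without WT mouse 2 of day 3, Slc51b (adjusted p = 0.0505, limma) and Nr0b2 (0.094) did not pass there, and the Nr0b2 call was lost without 7 of the 18 libraries.

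The values that changed sign were those of Slc10a2 in crypts with quantile normalization (0.028), Slc10a2 on day 1 with edgeR (-0.0094, and -0.0066 without a filter), Cbfa2t2 on day 3 with edgeR (-0.030, and -0.030 without a filter) and DESeq2 (-0.023), both without null mouse 2, as in limma without that library (-0.024), Slc51a from day 1 to day 3 with TMM over all libraries (0.0030), and Fgf15 with a pseudocount of 8 from crypts to day 1 (0.40) and to day 3 (0.97). WT crypts had no read of Fgf15, so their log2 value is set by the pseudocount alone. Without null crypt mouse 2, the Fgf15 change also turned positive, at 0.17 from crypts to day 1 and 0.66 from crypts to day 3. With libraries left out, the range was -0.60 to 1.12 for Nr0b2 and -0.25 to 0.62 for Slc51b in crypts (-0.36 and -0.0052 with only the 4 libraries without Xist), -0.21 to 0.082 for Cbfa2t2 in crypts and -0.024 to 0.15 on day 3, -0.12 to 0.20 for Slc10a2 on day 1, and -0.23 to 0.12 for the change of Slc51a from day 1 to day 3. For Fgf15 it was -1.11 to 0.17 from crypts to day 1 and -0.62 to 0.66 from crypts to day 3. The cause of these changes was not tested. The replicate block changed no member's call. It moved Cbfa2t2 on day 1 past the threshold (adjusted p = 0.0399, limma). In crypts Fgfr4 (adjusted p = 0.0563, limma), Dpep1 (0.0653), Slc2a5 (0.0848) and Clec2h (0.0882) no longer passed with the block, nor did Pdgfrb on day 1 (0.0585). Depth limits Fabp6 and the crypt values of Fgf15, which are a few reads per library.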
